A study of Homo sapiens with 21 samples.

Results

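The 10 genes described here encode transcription factors, and partners of such factors, that act in B cells before the plasma cell stage: PAX5, EBF1, TCF3, ID3, BCL11A, SPIB, POU2F2, POU2AF1, BCL6 and BACH2. They were taken by name as 10 rows of a table of 17691 genes, and all 10 are listed in it. Of these, 7 reached at least 1 TPM (a gene's length-scaled share of the transcripts of a library) in at least 3 libraries and could be tested, as did 12559 genes of the whole table. PAX5, EBF1 and SPIB did not, and their levels are given without a test.

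A B cell that becomes a plasma cell exchanges a set of factors that keep B cell genes on for a set led by IRF4, PRDM1 (BLIMP-1) and XBP1. PAX5 and EBF1 hold B cell identity, while BCL6 and BACH2 are repressors of the germinal centre and memory stages, and both are known to repress PRDM1. PRDM1 in turn is known to repress PAX5, BCL6 and CIITA, so the sets exclude each other in most cells, and a myeloma cell, a malignant plasma cell, is placed on the plasma cell side. The Ikaros family proteins Ikaros and Aiolos act in both stages.

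All libraries came from MM.1S, a human multiple myeloma line established from peripheral blood, and each of the 7 groups had 3 libraries. In the drug arm, wild-type cells were left untreated or received pomalidomide at 1 µM, with libraries made after 24, 48 and 72 h. Pomalidomide binds cereblon and directs Ikaros and Aiolos to a ubiquitin ligase for degradation. In the knockdown arm, cells carried lentiviral hairpins against ARID2, a subunit of the PBAF chromatin remodeller, or against Aiolos, for 72 h, and another group is labelled control knockdown, with its hairpin and time not given in the sources used here. No untreated cells are labelled for each drug time, so time in drug and time in culture cannot be told apart. The labels do not say whether the replicates of a group were separate cultures on separate days, so a p-value is set against no more than the spread among the libraries at hand.

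ARID2 itself stood at 12.44, 12.22 and 12.06 TPM in ARID2 knockdown cells, against 26.00, 25.44 and 25.44 TPM in control knockdown cells. IKZF3, the gene of Aiolos, went against its label, with 127.3, 121.0 and 141.4 TPM in cells labelled Aiolos knockdown, against 83.5, 79.2 and 81.4 TPM in control knockdown cells, and the protein was not measured. These 3 are therefore called the Aiolos-labelled libraries. All 12 plasma cell markers listed passed the filter, and they summed to between 10630 and 18410 TPM over the groups, while MS4A1 (CD20) and CD22 stayed near 0 TPM everywhere. TPM keeps no record of depth, so the depth of each library is unknown, and 14158 to 15264 genes were above 0. Mitochondrial mRNA held 15.5%, 17.0%, 16.7% and 13.7% of the listed TPM in untreated, 24, 48 and 72 h cells, and 18.5%, 15.7% and 17.2% in ARID2 knockdown, Aiolos-labelled and control knockdown cells. In bulk RNA, fewer cells that express a gene and less RNA of it per cell cannot be told apart.

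The 10 genes covered a wide range of levels. POU2AF1 and TCF3 were among the most abundant mRNAs of the line, with averages over all 21 libraries above those of 97.0% and 96.2% of listed genes, and neither fell below 145.5 TPM in any library. BACH2 (6.18 to 28.1 TPM), ID3 (3.59 to 28.6 TPM), BCL11A (1.30 to 9.89 TPM) and POU2F2 (2.14 to 8.07 TPM) were expressed at low to middle levels in all 21 libraries. BCL6 lay between 0.308 and 2.28 TPM and was at 1 TPM or more in 12 of the 21 libraries. These 12 are the libraries of the 4 groups in which BCL6 was high, so it passed the filter only through them, and its being among the tested genes is no support for a difference.

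**Figure D1:**
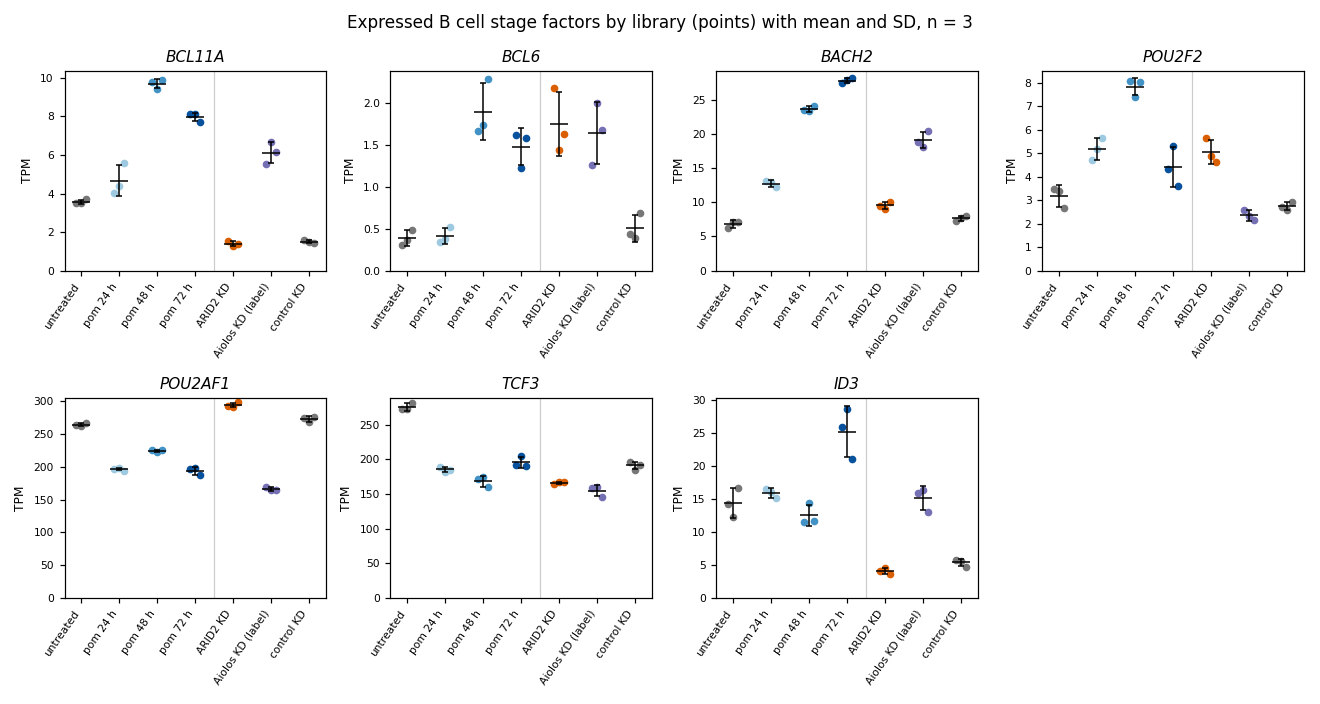
Levels of the 7 expressed factors in each of the 21 libraries (points, TPM on a linear axis from 0), with the mean and SD of each group (n = 3). BACH2 is higher at each later drug time and reaches 27.8 TPM at 72 h, BCL6 is below 0.7 TPM in 3 groups and above 1 TPM in 4, and TCF3 is highest in untreated cells.

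The factors of B cell commitment were close to the floor of the measurement. PAX5, the paired-box factor that fixes B cell identity, stood at 0.131, 0.0662 and 0 TPM in untreated cells, at 0.0715, 0.0301 and 0.166 TPM at 24 h, at 0, 0 and 0.0646 TPM at 48 h, and at 0, 0.0338 and 0.0865 TPM at 72 h. It stood at 0.145, 0.157 and 0.272 TPM in ARID2 knockdown cells, at 0.614, 0.432 and 0.520 TPM in the Aiolos-labelled libraries, and at 0.172, 0.225 and 0.159 TPM in control knockdown cells. The 3 Aiolos-labelled libraries held the 3 highest PAX5 values of the series, still below 1 TPM. Of the drug libraries, only the third of 24 h lay above the highest untreated library, at 0.166 against 0.131 TPM. No drug library was above the highest value of control knockdown cells, the control of the other arm.

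EBF1, which opens chromatin at early B cell genes, stood at 1.03, 0.353 and 0.536 TPM at 48 h and between 0.0312 and 0.409 TPM in all other groups. SPIB, an Ets factor that pairs with IRF4 and IRF8 on B cell enhancers, stood at 0.218, 1.03 and 0.251 TPM at 72 h, so its highest value came from 1 library, and it was listed at 0 in all 3 Aiolos-labelled libraries. SPIB also shares 839 of its 4281 exon bases (GRCh38, GENCODE 29) on the same strand with another gene of the table, so its reads could be divided between them. An exact 0 in a TPM table can be a failed estimate, so these zeros are listed values, not proof of absence. Between 22.1% and 25.2% of all listed genes had a lower average than these 3 factors.

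**Figure D2:**
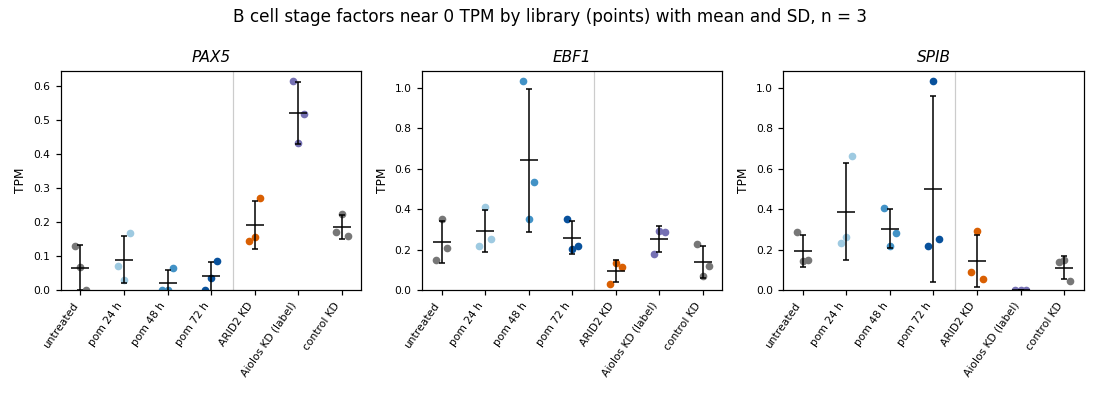
PAX5, EBF1 and SPIB in each of the 21 libraries (points, TPM on linear axes from 0), with the mean and SD of each group (n = 3). No library exceeds 1.035 TPM, PAX5 is highest in the Aiolos-labelled libraries (0.432 to 0.614 TPM), and the high EBF1 and SPIB values come from 1 library each.

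BACH2, a bZIP repressor that pairs with small MAF proteins, was higher at each later drug time. It stood at 6.18, 7.17 and 7.06 TPM in untreated cells, at 13.06, 12.94 and 12.19 TPM at 24 h, at 23.48, 23.33 and 24.07 TPM at 48 h and at 27.41, 27.78 and 28.09 TPM at 72 h. Every later time lay above every library of the time before it, with no overlap. Against untreated cells BACH2 was higher by 0.82 ± 0.06 at 24 h (SE, log2 of TPM + 1; limma adjusted p = 3.88e-10), by 1.66 ± 0.06 at 48 h (adjusted p = 1.55e-15) and by 1.89 ± 0.06 at 72 h (adjusted p = 1.84e-16). On the TPM scale the 72 h mean was 4.08 times the untreated mean. The last step, 72 h against 48 h, was 0.22 ± 0.06 (adjusted p = 0.00485) and lost its call with median-of-ratios scaling (0.14, adjusted p = 0.0683).

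In the knockdown arm BACH2 stood at 9.45, 9.04 and 10.08 TPM in ARID2 knockdown cells and at 18.82, 18.03 and 20.39 TPM in the Aiolos-labelled libraries, against 7.30, 7.65 and 7.999 TPM in control knockdown cells. ARID2 knockdown and Aiolos-labelled libraries lay above all control knockdown libraries, and the Aiolos-labelled libraries lay above those of ARID2 knockdown. The changes were 0.28 ± 0.06 with the ARID2 hairpin (adjusted p = 0.000438) and 1.21 ± 0.06 in the Aiolos-labelled libraries (adjusted p = 6.31e-13). Control knockdown and untreated cells differed little in BACH2 (0.15 ± 0.06, adjusted p = 0.049), a call lost without a filter, with quantile normalization, in a fit of these 2 groups alone and when any of 3 libraries was left out. The ratio of PRDM1 to BACH2 mRNA was 21.2 ± 1.56 in untreated cells (SD, n = 3) and 7.37 ± 0.611, 5.61 ± 0.217 and 4.72 ± 0.273 at 24, 48 and 72 h. It was 23.5 ± 1.04 in ARID2 knockdown cells and 4.61 ± 0.151 in the Aiolos-labelled libraries, against 21.3 ± 0.425 in control knockdown cells. This ratio and those below were chosen after their values were seen and carry no test.

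BCL6, the zinc finger repressor of the germinal centre, rose late. It stood at 0.308, 0.364 and 0.489 TPM in untreated cells, at 0.337, 0.378 and 0.523 TPM at 24 h, at 1.66, 1.73 and 2.28 TPM at 48 h and at 1.62, 1.22 and 1.59 TPM at 72 h. The 24 h libraries overlapped the untreated ones (0.03 ± 0.13, adjusted p = 0.877), while all libraries of 48 and 72 h lay above both. The differences from untreated cells were 1.06 ± 0.13 at 48 h (adjusted p = 4.96e-07) and 0.83 ± 0.13 at 72 h (adjusted p = 1.09e-05), and 48 h differed from 24 h by 1.03 ± 0.13 (adjusted p = 1.82e-06). The added 1 in log2(TPM + 1) holds down the fold of a gene this low: with 0.1 added instead, BCL6 was higher by 2.04 at 48 h and 1.70 at 72 h, and quantile normalization gave 0.69 and 0.53, all past the threshold. BCL6 at 72 h and 48 h did not differ past the threshold (-0.22 ± 0.13, adjusted p = 0.185).

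BCL6 was also higher in ARID2 knockdown cells and in the Aiolos-labelled libraries. It stood at 2.18, 1.44 and 1.63 TPM in ARID2 knockdown cells and at 1.26, 1.999 and 1.67 TPM in the Aiolos-labelled libraries, against 0.438, 0.388 and 0.687 TPM in control knockdown cells. Neither of these groups overlapped the control, and they overlapped each other. The changes were 0.87 ± 0.13 (adjusted p = 1.28e-05) and 0.81 ± 0.13 (adjusted p = 2.25e-05), and 1.63 and 1.54 with 0.1 added in place of 1. Of the 7 tested factors, BCL6 and BACH2 were the only ones higher in all of 48 h, 72 h, ARID2 knockdown and the Aiolos-labelled libraries. These are the groups through which BCL6 passed the filter, so the shared pattern is a description and supports no link. At 24 h BACH2 was higher (0.82) and BCL6 did not pass (0.03). BCL6 shares 171 and 318 of its 5938 exon bases with 2 antisense genes, and BACH2 shares 396 of 9786 with another, none of them in the table, and the counting is not stated to use strand.

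BCL11A, a zinc finger repressor that early B cell development in the mouse requires, stood at 3.54, 3.51 and 3.70 TPM in untreated cells, at 4.03, 4.39 and 5.56 TPM at 24 h, at 9.78, 9.45 and 9.89 TPM at 48 h and at 8.12, 8.11 and 7.74 TPM at 72 h. All drug libraries lay above all untreated ones, and 48 h above 72 h. At 24 h the change was 0.30 ± 0.09 (adjusted p = 0.00585) and rested partly on the third 24 h library, without which it was 0.18 (adjusted p = 0.0583), and quantile normalization gave 0.09 (adjusted p = 0.357). At 48 h it was 1.23 ± 0.09 (adjusted p = 8.33e-11) and at 72 h 0.97 ± 0.09 (adjusted p = 3.22e-09). The lower level at 72 h than at 48 h (-0.25 ± 0.09, adjusted p = 0.0233) missed the threshold when any of 3 libraries was left out (adjusted p = 0.057 to 0.0712).

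BCL11A differed from control knockdown cells in the Aiolos-labelled libraries and did not pass in ARID2 knockdown cells. It stood at 1.52, 1.30 and 1.40 TPM in ARID2 knockdown cells and at 5.56, 6.66 and 6.13 TPM in the Aiolos-labelled libraries, against 1.60, 1.48 and 1.44 TPM in control knockdown cells. ARID2 knockdown libraries overlapped the control (-0.06 ± 0.09, adjusted p = 0.584), and the Aiolos-labelled libraries lay far above it (1.504 ± 0.0878, adjusted p = 7.2e-12), with a mean 4.06 times the control mean. Control knockdown cells themselves had less BCL11A than untreated cells (-0.87 ± 0.09, adjusted p = 1.42e-07), so the baselines of the drug arm and the knockdown arm differ for this gene.

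BACH2, BCL6, BCL11A and POU2F2 were all higher at 48 h, and their promoter windows are shown to let their letters be compared. Windows run from 250 bases before to 50 bases after a RefSeq start on GRCh38.p14, are written 5′ to 3′ on the gene's strand, and were found for 9 of the 10 genes. Capitals mark matches, on either strand, to CANNTG (the E-box, the letters TCF3 and its relatives are known to bind), TGGGAA (an Ikaros family core), ATGCAAA (the octamer core of POU2F2) and TGANTCA (an AP-1 and BACH core). For BCL11A the window shown is 1 of 5 and for BCL6 1 of 2, in each case the one with the most matches. Neither is the start nearest the 5′ end of the annotated gene. BACH2 and POU2F2 have 1 window each. That of POU2F2 also lies inside the annotated gene, whose 5′ end is at chr19:42196585.
BACH2, chr6:90296794-90297093, minus strand: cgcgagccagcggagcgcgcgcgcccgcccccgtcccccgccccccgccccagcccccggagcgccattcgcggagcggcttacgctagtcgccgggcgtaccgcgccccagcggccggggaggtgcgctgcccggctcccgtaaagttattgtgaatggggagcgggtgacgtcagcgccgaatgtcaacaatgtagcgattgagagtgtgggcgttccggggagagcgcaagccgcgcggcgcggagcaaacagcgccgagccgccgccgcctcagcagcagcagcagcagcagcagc
BCL6, chr3:187736452-187736751, minus strand: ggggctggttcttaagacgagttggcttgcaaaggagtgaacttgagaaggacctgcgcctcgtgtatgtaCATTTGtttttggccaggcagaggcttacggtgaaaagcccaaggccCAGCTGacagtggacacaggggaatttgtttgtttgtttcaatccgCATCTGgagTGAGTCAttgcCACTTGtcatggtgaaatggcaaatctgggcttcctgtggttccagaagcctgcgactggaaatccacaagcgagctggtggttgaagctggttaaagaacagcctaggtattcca
BCL11A, chr2:60528486-60528785, minus strand: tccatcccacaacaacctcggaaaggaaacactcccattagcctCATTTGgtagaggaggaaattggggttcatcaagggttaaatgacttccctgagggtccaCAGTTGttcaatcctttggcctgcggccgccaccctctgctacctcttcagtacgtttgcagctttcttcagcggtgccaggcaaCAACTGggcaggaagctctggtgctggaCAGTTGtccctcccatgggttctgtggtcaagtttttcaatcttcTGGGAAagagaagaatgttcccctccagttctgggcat
POU2F2, chr19:42132397-42132696, minus strand: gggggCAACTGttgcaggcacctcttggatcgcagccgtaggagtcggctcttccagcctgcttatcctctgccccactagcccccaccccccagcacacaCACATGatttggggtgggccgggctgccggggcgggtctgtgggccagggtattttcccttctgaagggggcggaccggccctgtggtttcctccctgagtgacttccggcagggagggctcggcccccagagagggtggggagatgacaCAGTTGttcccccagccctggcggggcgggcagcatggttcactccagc

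The BACH2 window, rich in G and C, held none of the 4 motifs. The BCL6 window held 4 E-boxes and TGAGTCA, its match to the BACH core, 77 bases before the start, and the other BCL6 window held no match. The BCL11A window held 4 E-boxes and TGGGAA, of which the Ikaros core lies after the start, while 3 of its other windows held no match and 1 (chr2:60552665-60552964) held 2 E-boxes, TTCCCA (the Ikaros core on the opposite strand) and ATGCAAA, which overlaps an E-box. The POU2F2 window held 3 E-boxes. No match overlapped another in the 4 windows printed. Among all 35116 windows of the table, 68.7% held an E-box, 24.0% TGGGAA, 4.46% ATGCAAA and 7.71% TGANTCA, shares of single windows that cannot be set against a window picked from several. A match is a run of letters and no measurement of binding, and windows without one say only that these letters are not there.

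POU2F2 (OCT2) and POU2AF1 (OCA-B) act as a pair on the octamer sites of immunoglobulin and B cell genes, POU2F2 as the DNA-binding factor and POU2AF1 as its coactivator, and the pair moved in opposite directions under the drug. POU2F2 stood at 3.499, 3.37 and 2.67 TPM in untreated cells, at 4.71, 5.17 and 5.65 TPM at 24 h, at 8.07, 7.42 and 8.04 TPM at 48 h and at 4.35, 5.33 and 3.62 TPM at 72 h. Its libraries lay above the untreated ones at all 3 times, with a peak at 48 h and a narrow gap at 72 h. The changes were 0.57 ± 0.11 at 24 h (adjusted p = 0.000129), 1.09 ± 0.11 at 48 h (adjusted p = 1.52e-08) and 0.37 ± 0.11 at 72 h (adjusted p = 0.00411), and 72 h was below 48 h by -0.71 ± 0.11 (adjusted p = 2.28e-05). Quantile normalization gave 0.37 at 24 h and 0.18 at 72 h, and the last missed the threshold (adjusted p = 0.133).

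POU2AF1 stood at 263.9, 262.4 and 267.2 TPM in untreated cells, at 197.0, 198.2 and 194.6 TPM at 24 h, at 225.2, 223.3 and 225.7 TPM at 48 h and at 197.5, 198.3 and 187.3 TPM at 72 h. Every drug library lay below every untreated one. The falls were -0.43 ± 0.03 at 24 h (adjusted p = 1.78e-11), -0.23 ± 0.03 at 48 h (adjusted p = 6.36e-08) and -0.44 ± 0.03 at 72 h (adjusted p = 3.05e-12), and quantile normalization moved the 48 h value to -0.12. At its lowest drug time POU2AF1 thus kept 0.735 of its untreated mean, and its 72 h mean of 194 TPM was close to the 196 TPM of TCF3. POU2AF1 shares 236 of 7416 exon bases with a pseudogene on the opposite strand.

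In the knockdown arm the octamer pair did not move in opposite directions. POU2F2 stood at 5.64, 4.90 and 4.62 TPM in ARID2 knockdown cells and at 2.58, 2.34 and 2.14 TPM in the Aiolos-labelled libraries, against 2.71, 2.59 and 2.92 TPM in control knockdown cells. ARID2 knockdown libraries were all higher than the control (0.69 ± 0.11, adjusted p = 1.52e-05), while the Aiolos-labelled libraries were all slightly lower without passing the test (-0.16 ± 0.11, adjusted p = 0.203). POU2AF1 stood at 293.1, 291.8 and 298.5 TPM in ARID2 knockdown cells and at 169.6, 164.1 and 164.1 TPM in the Aiolos-labelled libraries, against 275.4, 268.1 and 275.9 TPM in control knockdown cells. It was higher with the ARID2 hairpin by 0.11 ± 0.03 (adjusted p = 0.00115; 0.23 with quantile normalization) and lower in the Aiolos-labelled libraries by -0.72 ± 0.03 (adjusted p = 4.1e-15). POU2F1 (OCT1), the ubiquitous relative, stayed between 9.95 and 13.5 TPM as group means. POU2F2 made up 19.0%, 30.4%, 40.0% and 26.6% of the summed POU2F1 and POU2F2 TPM in untreated, 24, 48 and 72 h cells, and 33.6% and 18.5% in ARID2 knockdown cells and the Aiolos-labelled libraries, against 18.3% in control knockdown cells.

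TCF3 (E2A) is the main E protein of B cells, a helix-loop-helix activator, and ID3 is a helix-loop-helix protein without a DNA-binding region that holds E proteins off DNA. TCF3 stood at 272.0, 271.9 and 281.6 TPM in untreated cells, at 189.5, 181.6 and 185.2 TPM at 24 h, at 171.5, 174.6 and 159.7 TPM at 48 h and at 192.5, 204.7 and 189.7 TPM at 72 h. All drug libraries lay far below the untreated ones, and the lowest group was 48 h. The falls were -0.57 ± 0.04 at 24 h (adjusted p = 2.1e-10), -0.70 ± 0.04 at 48 h (adjusted p = 2.23e-12) and -0.49 ± 0.04 at 72 h (adjusted p = 7.47e-10). Between 48 and 24 h TCF3 differed by -0.14 ± 0.04 (adjusted p = 0.00665), which missed the threshold without the third 48 h library (adjusted p = 0.0532), and between 72 and 48 h by 0.21 ± 0.04 (adjusted p = 0.000226; 0.13 with median-of-ratios scaling and 0.11 with quantile normalization, both past the threshold).

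TCF3 stood at 164.4, 166.9 and 167.5 TPM in ARID2 knockdown cells and at 158.0, 160.7 and 145.5 TPM in the Aiolos-labelled libraries, against 195.9, 184.8 and 192.5 TPM in control knockdown cells. ARID2 knockdown cells and the Aiolos-labelled libraries lay below the control, by -0.20 ± 0.04 (adjusted p = 0.000254) and -0.30 ± 0.04 (adjusted p = 1.4e-06). Control knockdown cells in turn lay below untreated cells by -0.52 ± 0.04 (adjusted p = 3.84e-09), against -0.57 for 24 h of drug. TCF3 was thus lower than untreated in every other group of the series.

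ID3 stood at 14.27, 12.21 and 16.70 TPM in untreated cells, at 16.53, 16.09 and 15.12 TPM at 24 h, at 11.48, 14.39 and 11.73 TPM at 48 h and at 25.92, 28.64 and 21.10 TPM at 72 h. Its 24 h and 48 h libraries overlapped the untreated ones (0.15 ± 0.12 and -0.18 ± 0.12, adjusted p = 0.301 and 0.174), and all 3 libraries of 72 h lay above every other library of the drug arm. The 72 h change was 0.77 ± 0.12 against untreated cells (adjusted p = 8.38e-06) and 0.95 ± 0.12 against 48 h (adjusted p = 2.91e-06). The small difference of 48 h from 24 h (-0.33 ± 0.12, adjusted p = 0.0261) missed the threshold when any of 4 libraries was left out, and leaving out the second untreated library brought 48 h against untreated to -0.29 (adjusted p = 0.0491).

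In the knockdown arm ID3 stood at 4.08, 4.53 and 3.59 TPM in ARID2 knockdown cells and at 15.95, 16.32 and 13.01 TPM in the Aiolos-labelled libraries, against 5.79, 5.60 and 4.75 TPM in control knockdown cells. The Aiolos-labelled libraries were higher by 1.33 ± 0.12 (adjusted p = 6.49e-09). ARID2 knockdown cells were lower by -0.33 ± 0.12 (adjusted p = 0.0224), a call lost without the third ARID2 knockdown library or without the first or second control knockdown library (adjusted p = 0.0664 to 0.1). Control knockdown cells had less ID3 than untreated cells (-1.26 ± 0.12, adjusted p = 7.04e-08), so the rise in the Aiolos-labelled libraries ended at 15.1 TPM, close to the 14.4 TPM of untreated cells.

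The other E proteins and ID proteins were read from a list of 18 partners and relatives. TCF4 (E2-2) averaged 18.8 TPM in untreated cells and 30.3, 43.0 and 36.4 TPM at 24, 48 and 72 h, a rise of 0.66, 1.15 and 0.92, and was higher in the Aiolos-labelled libraries by 0.97 (41.1 TPM against 20.4 TPM in control knockdown cells). TCF12 (HEB) rose by 0.22, 0.52 and 0.52 under the drug. TCF3 therefore made up 87.8% ± 0.1996 of the summed TPM of TCF3, TCF4 and TCF12 in untreated cells (SD, n = 3) and 77.7% ± 1.05, 70.3% ± 0.488 and 75.1% ± 0.532 at the 3 drug times. It made up 82.2% ± 0.122 in ARID2 knockdown cells and 73.1% ± 2.99 in the Aiolos-labelled libraries, against 83.7% ± 0.577 in control knockdown cells. ID2 was lower by -1.21 in ARID2 knockdown cells, where it averaged 10.3 TPM against 25.3 TPM in control knockdown cells, and ID1 was higher in the Aiolos-labelled libraries by 2.55 (12.4 TPM against 1.37 TPM in control knockdown cells).

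The ratio of TCF3 to ID3 mRNA summarises this pair. It was 19.4 ± 2.72 in untreated cells (SD, n = 3) and 11.7 ± 0.511, 13.6 ± 1.40 and 7.85 ± 0.994 at 24, 48 and 72 h. It was 41.3 ± 4.98 in ARID2 knockdown cells and 10.3 ± 0.756 in the Aiolos-labelled libraries, against 35.8 ± 4.13 in control knockdown cells. The ranges of ARID2 knockdown and control knockdown cells overlapped, and those of the drug times did not overlap the untreated range. Over all E proteins and all ID proteins together, the ratio was 5.55 in untreated cells, 3.23, 4.53 and 3.47 at the 3 drug times, and 12.7 and 3.99 in ARID2 knockdown cells and the Aiolos-labelled libraries, against 7.14 in control knockdown cells. These are ratios of mRNA shares, and protein was not measured.

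**Figure D3:**
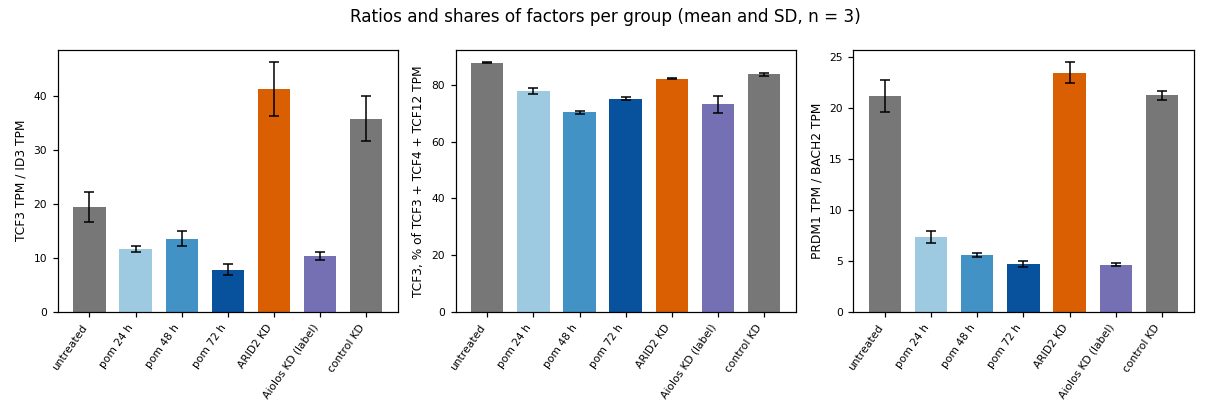
Group means with SD (n = 3) of the TCF3 to ID3 TPM ratio, of the percentage of TCF3 in the summed TPM of TCF3, TCF4 and TCF12, and of the PRDM1 to BACH2 TPM ratio, on linear axes from 0. The drug times and the Aiolos-labelled libraries are below their controls in all 3 panels, with PRDM1 to BACH2 at 4.72 at 72 h and 4.61 in the Aiolos-labelled libraries, while in ARID2 knockdown cells that ratio is 23.5.

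Counted over comparisons, 3 of the 7 tested factors were higher and 2 lower at 24 h, when 35.1% of all 12559 genes tested were higher and 31% lower (66.1% in either direction). At 48 h 4 were higher and 2 lower (background 43.8% and 34.8%, 78.7% together), and at 72 h 5 and 2 (background 48.1% and 31.6%, 79.8% together). These shares of 7 are near the background and say nothing particular of the factors. The median log2 fold change of the 7 was 0.15 at 24 h, 1.06 at 48 h and 0.77 at 72 h, beside 0.03, 0.08 and 0.15 over all genes tested. The 48 h median is the value of BCL6 itself, which entered the test only through groups where it is high, so these medians are a description and support no difference. The median of all genes at 72 h moved to 0.01 with median-of-ratios scaling, and the share of higher genes among those called at 72 h was 50.3% with it and 60.4% without. With the ARID2 hairpin 4 factors were higher and 2 lower (background 33.1% and 29.2%, 62.2% together), and in the Aiolos-labelled libraries 4 and 2 (background 37.2% and 30.7%, 67.9% together). Their medians were 0.11 and 0.81, beside 0.02 and 0.05 over all genes, and the second is again the value of BCL6 itself.

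Between consecutive drug times, 5 factors were higher and 2 lower at 48 h than at 24 h (background 32.1% and 26.1%, 58.2% together), and 3 were higher and 3 lower at 72 h than at 48 h (background 31.6% and 16.5%, 48% together). Scaling bears on the last comparison: of all genes called, 65.7% were higher as deposited, 45.4% with median-of-ratios scaling and 53.5% with quantile normalization. BACH2 and ID3 were at their highest at 72 h, while BCL11A and POU2F2 were highest at 48 h and BCL6 did not differ between these times past the threshold. Control knockdown and untreated cells differed in 4 of the 7 factors: BACH2 was higher and BCL11A, TCF3 and ID3 were lower in control knockdown cells (background 17.3% higher and 28.4% lower, 45.7% together). Libraries of the groups compared did not overlap for 5, 6 and 7 of the 7 factors at 24, 48 and 72 h (background 68.6%, 79.8% and 80.4%), for 6 in ARID2 knockdown cells and for 7 in the Aiolos-labelled libraries (background 70.6% in each). They did not overlap for 7 between 48 and 24 h (background 62%), for 7 between 72 and 48 h (background 54.8%) and for 5 between control knockdown and untreated cells (background 58.6%).

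**Figure D4:**
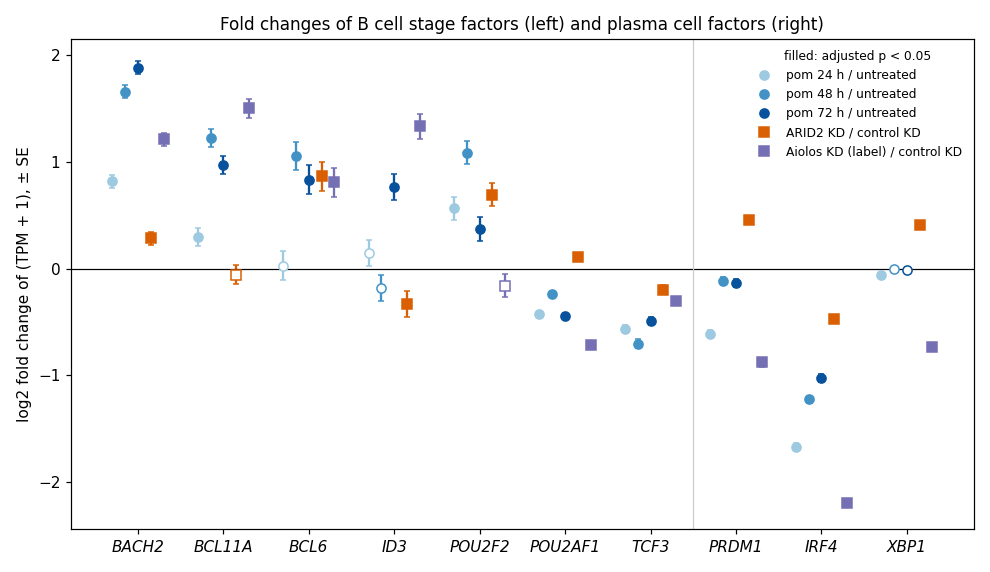
Log2 fold change of TPM + 1 with its SE for the 7 tested factors (left of the line) and for PRDM1, IRF4 and XBP1 (right), in 5 comparisons. Filled symbols passed an adjusted p of 0.05 in limma. BACH2 lies above 0 in all 5 and TCF3 below 0 in all 5, while ID3 and POU2AF1 have filled symbols on both sides of 0.

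Whether the change at 72 h of drug differed in size from that in ARID2 knockdown cells and in the Aiolos-labelled libraries was tested as a difference of the 2 effects. The drug effect was larger than the ARID2 knockdown effect for BACH2 by 1.60 ± 0.09 (adjusted p = 1.82e-12), for BCL11A by 1.03 ± 0.12 (adjusted p = 3.61e-07) and for ID3 by 1.10 ± 0.17 (adjusted p = 1.03e-05), and more negative for POU2AF1 by -0.55 ± 0.04 (adjusted p = 5.04e-11) and TCF3 by -0.29 ± 0.06 (adjusted p = 0.000139). For BCL6 the difference was -0.03 ± 0.19 (adjusted p = 0.889), and for POU2F2 it was -0.32 ± 0.15 (adjusted p = 0.0709), which passed with median-of-ratios scaling (-0.43, adjusted p = 0.0193) and quantile normalization (-0.47, adjusted p = 0.0126). In all, 2 of 7 differences were negative and 3 positive, against a background of 29.1% and 40.4% (69.5% together).

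Against the Aiolos-labelled libraries, 6 of 7 factors differed, 3 with a positive and 3 with a negative difference (background 35% and 28%, 63% together). The drug effect was larger for BACH2 by 0.67 ± 0.09 (adjusted p = 1.01e-06), and for POU2F2 it lay above that in the Aiolos-labelled libraries by 0.53 ± 0.15 (adjusted p = 0.00532). For POU2AF1 the drug effect was a smaller fall, less negative by 0.27 ± 0.04 (adjusted p = 1.87e-06; 0.18 with median-of-ratios scaling). It was smaller for BCL11A by -0.53 ± 0.12 (adjusted p = 0.000952; -0.81 with 0.1 added in place of 1) and ID3 by -0.56 ± 0.17 (adjusted p = 0.00734), and more negative for TCF3 by -0.19 ± 0.06 (adjusted p = 0.00743; -0.28 with median-of-ratios scaling). BCL6 again gave no difference past the threshold (0.02 ± 0.19, adjusted p = 0.918), an SE wide enough that unequal effects on it cannot be told from equal ones. ARID2 knockdown and Aiolos-labelled libraries are set against the same control libraries, so their changes are not independent of each other.

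The plasma cell factors that these repressors oppose did not move as 1 block. PRDM1 averaged 143.8 TPM in untreated cells and 93.7, 132.4 and 130.9 TPM at 24, 48 and 72 h, with changes of -0.61 ± 0.04, -0.12 ± 0.04 and -0.14 ± 0.04 (adjusted p = 5.56e-11, 0.0113 and 0.00445). The 48 h call was lost with quantile normalization (-0.0091, adjusted p = 0.848), and median-of-ratios scaling gave -0.29 at 72 h. BACH2 was therefore higher at all 3 times, while the fall of PRDM1 was largest at the first. In ARID2 knockdown cells BCL6, BACH2 and PRDM1 were higher together, PRDM1 by 0.46 ± 0.04 (adjusted p = 5.43e-09), and in the Aiolos-labelled libraries PRDM1 was lower by -0.88 ± 0.04 (adjusted p = 1.5e-13). IRF4 was lower in all 5 comparisons, by -1.67, -1.23 and -1.03 at the drug times, -0.48 with the ARID2 hairpin and -2.20 in the Aiolos-labelled libraries (SE 0.04 each). Control knockdown cells had more IRF4 than untreated cells (0.43 ± 0.04, adjusted p = 9.31e-09), with means of 631 and 469 TPM. ARID2 knockdown cells averaged 453 TPM, near the untreated level. XBP1 differed by -0.06 ± 0.02 at 24 h (adjusted p = 0.0322), a call lost when any of 4 libraries was left out and with a sign that turned under quantile normalization, and did not pass at 48 or 72 h. It was lower in the Aiolos-labelled libraries by -0.74 ± 0.02, but higher with the ARID2 hairpin by 0.40 ± 0.02.

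Of the 12 plasma cell identity genes, 3 were higher and 7 lower at 24 h, 5 and 6 at both 48 and 72 h, 3 and 8 in ARID2 knockdown cells and 3 and 9 in the Aiolos-labelled libraries, with medians of -0.24, -0.06, -0.07, -0.36 and -0.74. Over all genes tested, 66.1%, 78.7%, 79.8%, 62.2% and 67.9% passed in these comparisons. This list and those below were chosen with earlier results of these data known, so their counts are a description. FKBP11, SLAMF7 and TNFRSF17 (BCMA), genes of the secretory apparatus and surface of plasma cells, were lower at all 3 drug times, in ARID2 knockdown cells and in the Aiolos-labelled libraries. At 72 h they changed by -1.41, -0.92 and -0.85. The list thus moved down in part, while CD38, DERL3 and SDC1 rose at all 3 drug times. SDC1 averaged 686 TPM in untreated cells and 850, 897 and 926 TPM at 24, 48 and 72 h. MZB1 averaged 1133 TPM in untreated cells and 1576 and 1977 TPM at 48 and 72 h. TXNDC5 averaged 6222 TPM in untreated cells and 9160 and 8506 TPM at 48 and 72 h.

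A list of 23 B cell surface, receptor and early B cell genes shows whether B cell genes accompanied the factors. Of these, 21 were among the deposited genes and 13 passed the filter. MS4A1, CD22, FCER2, BANK1, RAG1, RAG2, DNTT and TNFRSF13C stayed below 1 TPM in all libraries. At 24 h 4 of the 13 were higher and 2 lower, at 48 and 72 h 6 and 3, with medians of 0.10, 0.39 and 0.02. The shares of all genes tested that passed were 66.1%, 78.7% and 79.8% at 24, 48 and 72 h. BLNK, the adaptor of B cell receptor signalling, averaged 20.3 TPM in untreated cells and 86.95, 114 and 124 TPM at 24, 48 and 72 h (2.05, 2.44 and 2.56, SE 0.06). VPREB1, a surrogate light chain of pre-B cells, averaged 0.136 TPM in untreated cells, where the highest library had 0.409 TPM, and 5.83, 11.8 and 9.34 TPM at the 3 times (2.59, 3.48 and 3.19, SE 0.20). It reached 1 TPM in drug libraries only, so it passed the filter through the groups where it is high, and its place among the tested genes and in the counts above is no support for a difference. CIITA, the activator of MHC class II genes, averaged 18.3 TPM in untreated cells and 32.2, 40.4 and 30.6 TPM at the 3 times (0.78, 1.10 and 0.71).

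Other B cell genes did not follow. CR2 (CD21) fell at all 3 times (-1.28, -0.92 and -0.63), CD79B, the signalling chain of the B cell receptor, fell by -0.64, -0.37 and -0.39, and its partner CD79A was at most 1.24 TPM in any library and did not pass. With the ARID2 hairpin 2 genes of this list were higher, LEF1 by 0.63 and BLNK by 0.73, and 3 were lower, among them CD79B by -0.90 and FCRL1 by -0.43. Of all genes tested, 62.2% passed in ARID2 knockdown cells. LEF1 averaged 41.9 TPM there and 26.7 TPM in control knockdown cells, beside 41.9 TPM in untreated cells. In the Aiolos-labelled libraries 6 were higher, among them LEF1 by 0.95 and CR2 by 0.78, and 3 were lower, among them CIITA by -0.86 and FCRLA by -1.52. The share of all genes tested that passed there was 67.9%. CIITA and CR2 thus moved in opposite directions under the drug and in the Aiolos-labelled libraries, while BACH2, BCL6 and BCL11A were higher at 48 and 72 h and in the Aiolos-labelled libraries.

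**Figure D5:**
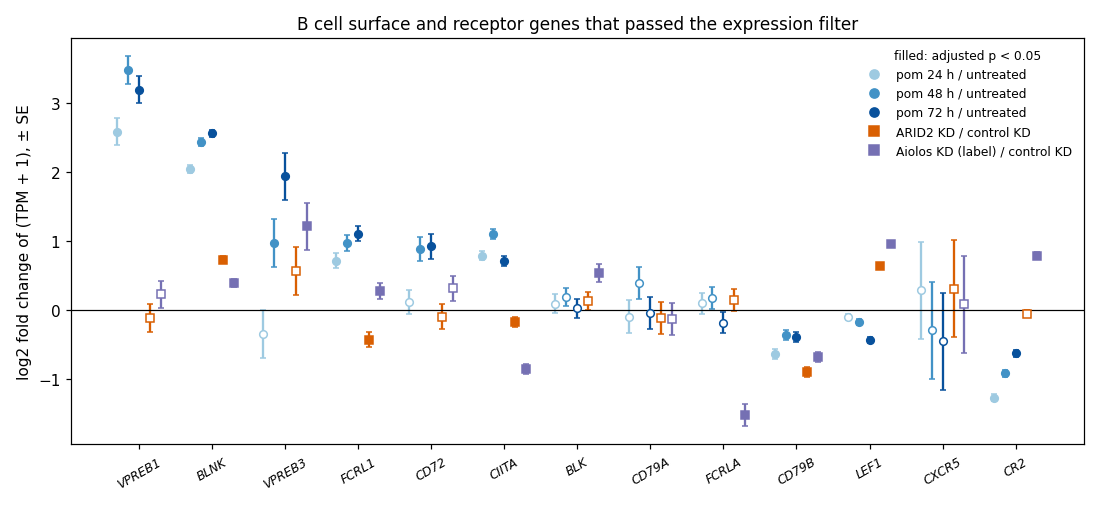
Log2 fold change of TPM + 1 with its SE for the 13 B cell surface, receptor and early B cell genes that passed the filter, in 5 comparisons, ordered by their change at 72 h. Filled symbols passed an adjusted p of 0.05 in limma. VPREB1 and BLNK stand highest under the drug (3.19 and 2.56 at 72 h), and CR2 and CIITA lie on opposite sides of 0 under the drug and in the Aiolos-labelled libraries.

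Genes described as repressed by BCL6 were read as a list of 9, of which 7 were tested. At 24 and 48 h 3 were higher and 4 lower, and at 72 h 2 and 5. Of all genes tested, 66.1%, 78.7% and 79.8% passed at these times. In ARID2 knockdown cells all 7, PRDM1 and CD44 among them, were higher, with a median of 0.46 beside 0.02 over all genes. There 33.1% of all genes tested were higher and 62.2% passed in either direction. The list was chosen with earlier results of these data known, so this count is a description and no result about BCL6. CXCL10, an interferon-induced chemokine, was higher there by 2.73, CCND2 (cyclin D2) by 0.68 and CCL3, which has close copies that may divide its reads, by 0.68. Under the drug CCL3 changed by -2.20, -2.67 and -2.06 and CDKN1B, the inhibitor p27 of cyclin-dependent kinases, rose by 0.58, 0.91 and 1.00. CXCL10 was higher under the drug as well, by 0.56, 1.68 and 1.65 at 24, 48 and 72 h. Control knockdown cells differed from untreated cells by 2.44 in CCL3 and by -0.79 in CXCL10. In the Aiolos-labelled libraries 3 were higher and 4 lower, where 67.9% of all genes tested passed, and CCL3 changed by -3.09.

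Germinal centre genes gave no common direction. Of 12 listed, 10 were among the deposited genes and 7 were tested. Of these 7, 1 was higher and 4 lower at 24 h, 4 and 3 at 48 h, 2 and 4 at 72 h, 2 and 1 in ARID2 knockdown cells and 1 and 3 in the Aiolos-labelled libraries. The shares over all genes tested were 66.1%, 78.7%, 79.8%, 62.2% and 67.9% in either direction. MYBL1 (A-MYB), a factor of germinal centre B cells, was lower at all 3 drug times, by -0.56, -1.51 and -1.84, and BCL7A by -0.86, -1.25 and -1.43. KLHL6 was lower at 24 h (-0.21) and higher at 48 h (0.45) and 72 h (0.26).

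Among the 18 partners and relatives, 17 were among the deposited genes and 16 were tested: 7 were higher and 4 lower at 24 h, 7 and 3 at 48 h, 10 and 2 at 72 h, 3 and 7 in ARID2 knockdown cells and 8 and 4 in the Aiolos-labelled libraries. MAFF and MAFG, small MAF proteins that can pair with BACH2, were higher at 72 h by 1.43 and 0.70, and MAFF by 0.90 at 48 h. MAFG averaged 79.1 TPM in untreated cells and 69.3 and 76.6 TPM at 24 and 48 h. MAFK, also a small MAF protein, went the other way, by -0.60 at 24 h. It averaged 29.2 TPM in untreated cells and 18.9, 17.8 and 24.3 TPM at 24, 48 and 72 h. BCOR, a corepressor of BCL6, was higher by 0.60 in the Aiolos-labelled libraries. Its mean also rose under the drug, from 53.2 TPM in untreated cells to 65.2, 67.7 and 86.8 TPM at 24, 48 and 72 h. Of 10 other transcription factors of the B lineage, 6 were higher and 3 lower at 24 h, 7 and 2 at 48 h, 6 and 2 at 72 h, 7 and 2 in ARID2 knockdown cells and 5 and 4 in the Aiolos-labelled libraries. For these lists the shares of all genes tested that passed were 66.1%, 78.7%, 79.8%, 62.2% and 67.9% in the same comparisons. IKZF1 (Ikaros) was higher at 24, 48 and 72 h by 0.53, 0.85 and 0.66, and ETS1 was lower by -0.75, -0.87 and -0.54.

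Markers of other cell types differed between the groups. The 7 myeloid genes summed to 4.26 to 7.04 TPM in untreated cells and to 42.7 to 53.7, 71.8 to 73.6 and 54.6 to 57.5 TPM at 24, 48 and 72 h, and to 15.4 to 16.3 and 21.6 to 26.5 TPM in ARID2 knockdown cells and the Aiolos-labelled libraries, against 6.78 to 8.62 TPM in control knockdown cells. CD68, a lysosomal protein, made up most of it, at 66.8 TPM of the 48 h sum, and LYZ, CSF1R, FCGR3A and S100A8 were under 1 TPM in all groups. CD14 and ITGAM, the other myeloid markers tested, were also higher at 24, 48 and 72 h, CD14 by 1.14, 1.46 and 1.53 and ITGAM by 1.04, 1.42 and 1.21. Their highest untreated libraries had 0.819 and 0.171 TPM. They passed the filter only through groups where they are high, so their place among the tested genes is no support for a difference. CD2, a T and NK cell marker, was higher by 1.46, 1.88 and 1.32 at 24, 48 and 72 h. It averaged 2.12, 3.11 and 1.81 TPM then, beside 0.122 TPM in untreated cells. Its highest untreated library had 0.184 TPM, and the same limit of the filter holds for it. CD3E, the other T and NK cell marker tested, was lower at 48 h (-0.45, limma adjusted p = 0.0442) and 72 h (-0.875, adjusted p = 0.00042). T and NK cell markers summed to at most 5.86 TPM, epithelial and stromal markers to at most 3.71 TPM and erythroid markers to 3.74 to 28.9 TPM, with HBB the only one of them to pass the filter. The part of any of these in the changes of the B cell factors was not tested.

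Across the 21 libraries, and with no test because libraries of a group share their condition, the levels of the 7 factors were compared with each other and with all genes on the log2(TPM + 1) scale. BCL11A and BACH2 gave a Pearson r of 0.84, BCL11A and ID3 0.83, BACH2 and POU2AF1 -0.72, and TCF3 and ID3 0.23. Among genes whose highest group mean was at least 5 TPM, the most similar to BACH2 were GSTA4 (0.989) and SLC48A1 (0.984), to BCL11A C3orf58 (0.982) and RBL2 (0.976), and to BCL6 GABARAPL2 (0.946) and PCMTD2 (0.936). POU2AF1 was most like SMARCA2 (0.964) and OSBPL1A (0.960), POU2F2 like MT-CO1 (0.941) and VGLL4 (0.923), TCF3 like RRP7A (0.961) and GEMIN5 (0.947), and ID3 like ICOSLG (0.957) and WDR82 (0.952). All these r rest on 7 groups of 3 libraries. MT-CO1, the gene most like POU2F2, is mitochondrial, and the share of mitochondrial mRNA given above differs between the groups.

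Ordered by level, BACH2 was the only one of the 7 tested factors whose 7 groups did not overlap at any step: 72 h (27.8 TPM), 48 h (23.6 TPM), the Aiolos-labelled libraries (19.1 TPM), 24 h (12.7 TPM), ARID2 knockdown (9.52 TPM), control knockdown (7.65 TPM) and untreated (6.80 TPM). The last step was narrow, with 7.298 TPM in the lowest control knockdown library and 7.169 TPM in the highest untreated one. The share of all genes tested with such an order was not counted, so this is a description. For BCL6 the 4 high groups (48 h 1.89, ARID2 knockdown 1.75, Aiolos-labelled 1.64 and 72 h 1.48 TPM) each overlapped the next, as did the 3 low ones (control knockdown 0.504, 24 h 0.413 and untreated 0.387 TPM), with a gap between. BCL11A ran from 9.71 TPM at 48 h to 1.41 TPM in ARID2 knockdown cells, a ratio of 6.90 between group means, and ID3 from 25.2 TPM at 72 h to 4.07 TPM in ARID2 knockdown cells, a ratio of 6.20. POU2AF1 and TCF3, the most abundant, spanned the narrowest ranges, with ratios of 1.77 and 1.78 between their highest and lowest group means. The genes lie, on GRCh38 in GENCODE 29, at chr2:60450520-60555154 (BCL11A), chr3:187721377-187745727 (BCL6), chr6:89926529-90296908 (BACH2), chr9:36833275-37034185 (PAX5), chr19:50418938-50431313 (SPIB, plus strand), chr11:111352252-111455630 (POU2AF1), chr19:42086110-42196585 (POU2F2), chr19:1609290-1652605 (TCF3), chr1:23557918-23559794 (ID3) and chr5:158695916-159099761 (EBF1), all but SPIB on the minus strand.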

How the data were processed

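RNA of 21 MM.1S libraries, 3 in each of 7 groups, was made into libraries with the TruSeq RNA v2 kit, per the labels' protocols. The authors deposited 1 table in TPM, with 1 column per library. The build is hg38, per the submitters' processing notes, with aligner, quantifier and annotation not given in the sources used here. TPM is a share of each library and holds no depth, so no interval for counting error can be given and a gene's TPM can fall because others rose. Values were analysed as log2(TPM + 1), which understates the fold of low genes. A gene entered the model if 3 or more libraries had 1 TPM or more (12559 of 17691). One linear model in limma 3.58.1 (R 4.3.3) with the 7 group means over all 21 libraries and trended empirical Bayes (14 residual and 5.28 prior degrees of freedom) gave 10 contrasts, two-sided, with Benjamini-Hochberg adjustment over all genes kept, and an adjusted p under 0.05 passed. All adjusted p-values are limma's, and a fold change is treated or knockdown minus control on the log2 scale. The code was tested on simulated data. Genes named beyond the 10 are ARID2, IKZF3, PRDM1, IRF4, XBP1 and, of each list and comparison, up to 4 that passed with the smallest p; others were named after their values were seen, to place them beside these. The 10 genes and all lists were chosen with earlier results of these data known. Same-numbered libraries of the groups compared directly did not deviate together (24 pairs, correlations of -0.119 to 0.0526). No pairing by replicate number was seen in them, and other pairs of groups were not checked. Alternatives were a pseudocount of 0.1, no filter or 5 TPM, median-of-ratios scaling, quantile normalization, a replicate block, the compared groups alone, each library left out and, added after the data were seen, a fit without the Aiolos-labelled libraries. Promoter windows came from RefSeq on GRCh38.p14. Python 3.11.15 with pandas 2.3.3 and matplotlib 3.10.9 was used.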

Additional observations from a re-analysis of the deposited data

How the results depend on the processing

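The counts of tested factors that passed, and the counts of all genes that passed, stayed within 1.5 times the reported ones under all 150 alternatives of each kind. Of the alternatives for the fold changes of single factors, 997 kept direction and call, 21 lost the call, 7 gained one and 15 changed sign. All 15 were of BCL6 in comparisons where it did not pass. At 24 h against untreated cells BCL6 gave -0.28 with quantile normalization and -0.029 to 0.078 with 1 library left out. Its drug effect minus its ARID2 knockdown effect was 0.076 with a pseudocount of 0.1 and -0.12 to 0.077 with 1 library left out. Its drug effect minus the effect in the Aiolos-labelled libraries was -0.038 with median-of-ratios scaling, -0.19 with quantile normalization and -0.083 to 0.12 with 1 library left out. XBP1 changed sign with quantile normalization, to 0.058, 0.15 and 0.16 at 24, 48 and 72 h; the cause was not tested. With the replicate block 5, 6 and 7 factors passed at 24, 48 and 72 h, 6 in ARID2 knockdown cells and 6 in the Aiolos-labelled libraries, as without it, and the block changed no call. Depth is unknown, so PAX5, EBF1 and SPIB, near 0 TPM, cannot be compared between groups with a stated precision.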
